A study of Sus scrofa with 36 samples.

Results

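The cytosolic ribosomal protein genes encode the protein part of the ribosomes that translate nuclear messages in the cytoplasm. They were examined here in the liver of 36 pigs. Members were the non-control array probes whose gene name starts with RPL or RPS and a digit, or is RPLP0, RPLP1, RPLP2 or RPSA, without the RPS6K kinases. The array carried 284 such probes under 83 names, of 60305 probes in all. A probe was kept when its signal was well above background on at least 6 of the 36 arrays, which left 276 probes and 80 names. These names were 39 large subunit proteins, 29 small subunit proteins, 6 paralogues, 5 names of pseudogenes and RPS19BP1, which binds a ribosomal protein and is not one. RPL13, RPS4X and RPS26P11 had 1 probe each and were not kept, since these probes passed on 1, 0 and 5 arrays. RPS27L, RPL39 and RPL39L were not among the array's gene names in that spelling.

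The animals were castrated male growing pigs of the Large White breed (LW), the Creole breed (CR) and their F1, a cross that the study's methods name and the labels do not. Each breed had 12 animals, 6 killed at 24 °C (thermoneutral, TN) and 6 after heat (heat stress, HS). The sample labels give 30 °C for the heated animals and the growth protocol gives 32 °C for 5 days. According to the study's methods the pigs of a breed came from a few blocks of littermates, and the TN animals were killed before the heat began, so that temperature and day of slaughter cannot be told apart. Litter and pen are not in the labels, and littermates entered the tests as separate animals. Ages were not in the labels. Each liver was measured once on a 1-colour Agilent array, on 5 slides that each held as many TN as HS animals.

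Each ribosome joins a small subunit, which holds the message, to a large subunit, which joins amino acids. All ribosomal proteins are needed in nearly fixed proportions. Their messages begin with a run of pyrimidines (the TOP motif), through which mTOR and LARP1 set their translation together. The hepatocyte secretes most plasma proteins and is among the cells richest in ribosomes. Many processed pseudogenes of these genes lie in mammalian genomes, and several have paralogues that can replace them, so that the stretch a probe reads matters to its value.

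Member probes were bright. Their mean log2 signal over the arrays had a median of 14.9, against 7.43 over all kept probes, and 272 of the 276 were well above background on all 36 arrays. Of the members, 36 rested on 1 kept probe, 28 on 2 to 5 and 16 on 6 or more, up to 19 for RPL5. All probes were 60 bases long. Values below are log2 of the quantile-normalized median signal, averaged over the kept probes of a name, and differences are on that log2 scale. A difference passed the test when its p from limma, adjusted over all 33267 gene features by Benjamini-Hochberg, was under 0.05.

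The probe sequences that carry the main single-gene results were taken from the scanner files and are written 5′ to 3′. The first 3 belong to members that rested on 1 probe: RPLP0, the stalk base of the large subunit, RPS27A, a small subunit protein made as a fusion with ubiquitin, and the pseudogene name RPL13AP3.
RPLP0 probe O13253: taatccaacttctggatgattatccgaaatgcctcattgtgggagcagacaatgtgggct
RPS27A probe O8876: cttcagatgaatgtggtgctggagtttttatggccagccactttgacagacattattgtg
RPL13AP3 probe O8756: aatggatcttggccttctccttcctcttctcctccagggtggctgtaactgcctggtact

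The next sets are pairs of probes that share a run of bases, which is in capitals. The RPL22 probes share 40 bases and differed in their breed difference, as described below. The RPSA probes share 32 bases. The RPL6 probes share 38 bases and lie in the stretch of that gene on which 4 animals stood apart. The last RPL6 probe, further along that stretch, is shown for comparison.
RPL22 probe A_72_P423485: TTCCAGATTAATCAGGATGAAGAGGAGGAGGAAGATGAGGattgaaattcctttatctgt
RPL22 probe O14894: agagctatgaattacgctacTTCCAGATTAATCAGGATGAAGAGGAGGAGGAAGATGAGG
RPSA probe A_72_P004351: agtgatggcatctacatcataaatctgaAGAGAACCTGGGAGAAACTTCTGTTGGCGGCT
RPSA probe A_72_P635916: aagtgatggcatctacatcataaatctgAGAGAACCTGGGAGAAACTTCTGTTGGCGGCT
RPL6 probe A_72_P756548: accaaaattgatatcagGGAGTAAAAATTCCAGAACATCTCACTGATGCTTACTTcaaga
RPL6 probe A_72_P729538: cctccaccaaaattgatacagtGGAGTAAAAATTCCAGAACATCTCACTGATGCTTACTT
RPL6 probe A_72_P740378: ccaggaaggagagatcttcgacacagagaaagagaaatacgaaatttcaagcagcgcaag

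Probes under different names also shared runs, again in capitals. RPL10 and the RPL10L probe share 49 bases, so that these names do not separate the gene from its paralogue. The RPS10P5 probe is the same 60 bases as one RPS10 probe. The RPS2 probe and the RPS2P32 probe share 23 bases on opposite strands, so that they read opposite strands of this sequence. As printed, the RPS2P32 probe is RPS2 coding sequence, and the RPS2 probe is the reverse complement of such sequence. The value under the name RPS2 may therefore not be the level of the RPS2 message.
RPL10 probe A_72_P739176: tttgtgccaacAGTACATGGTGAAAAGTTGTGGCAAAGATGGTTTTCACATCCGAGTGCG
RPL10L probe A_72_P052661: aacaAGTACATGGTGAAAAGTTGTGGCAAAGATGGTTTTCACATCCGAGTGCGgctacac
RPS10 probe A_72_P536582: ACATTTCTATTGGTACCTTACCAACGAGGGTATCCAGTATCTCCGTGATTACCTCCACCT
RPS10P5 probe O9731: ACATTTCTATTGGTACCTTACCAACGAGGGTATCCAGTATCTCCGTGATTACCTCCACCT
RPS2 probe O3817: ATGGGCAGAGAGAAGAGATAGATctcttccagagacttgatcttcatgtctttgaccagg
RPS2P32 probe O2000: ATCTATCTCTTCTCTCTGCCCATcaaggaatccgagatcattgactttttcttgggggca

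Identical pairs gave a measure of the difference between spots of 1 sequence. Over 36 arrays the RPS10 spot minus the RPS10P5 spot was -0.15 ± 0.07 (SD), with a range from -0.31 to -0.03. For the other such pair, 2 RPL29 probes (A_72_P165081 minus O9973), it was 0.12 ± 0.08 (SD), from -0.05 to 0.26. Differences of this order between 2 spots on an array therefore occur without any difference in sequence. Among the kept member probes, 188 pairs within a gene shared at least 15 bases, so that probes of 1 gene were in part repeats of each other.

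Spots well above background numbered 39644 to 44025 per array, and no spot was saturated. The highest correlation between 2 arrays was 0.994, a value that can reveal copied arrays and not how far quality varied. On the first principal component of all features, with 18.1% of the variance, 2 LW TN animals (4.36 and 3.31) lay below the other 10 LW animals (18.8 and over) and 3 F1 animals (13.4 to 15.4) above the other F1 animals (3.17 and under). Without these 5 animals no member passed for heat, 28 passed for CR minus LW and 37 for F1 minus LW, against 0, 21 and 30 with them. The calls over all features rose too, from 25.2% to 31.6% and from 16.5% to 30.2%. By the animal numbers in the sample titles, the 2 LW TN animals stand next to the run of the other F1 numbers. The F1 HS animals among the 5 stand next to the run of the other LW numbers, and the F1 TN animal lies within the F1 run. Breed is used here as labelled, and whether the labels of these animals are right was not tested. Liver identity was clear from the hepatocyte markers, of which 11 of 14 were tested and all 11 were above background on every array. Of these 11, 3 were lower in CR than in LW (FGG at -0.43, APOA1 at -0.32 and FGB at -0.20), and 3 were lower and 1 higher in F1 than in LW. Markers of other liver cells differed between breeds as well. Of 9 macrophage markers tested, 6 were lower in CR than in LW and 6 lower in F1 than in LW, with median differences of -0.61 and -0.56. Their mean level ran from 10.56 to 11.20 in LW, from 10.13 to 10.54 in CR and from 10.05 to 10.86 in F1. Of 11 lymphocyte markers 7 were lower in CR than in LW and 4 lower in F1, with list means of 6.36 to 6.81 in LW, 6.15 to 6.61 in CR and 6.25 to 6.63 in F1. Of 7 endothelial markers 5 were lower in CR and 3 lower in F1, and of 8 stellate and fibroblast markers 3 and 1. Erythroid and bile duct markers had at most 1 call in either comparison, and no list had a call for heat. All 9 macrophage markers, all 7 endothelial markers and 10 of the 11 lymphocyte markers were above background on all arrays, and MARCO and TIMD4 of the macrophage list were not tested. The part of these cells in the breed differences below was not tested, and in whole liver fewer cells of a type and less RNA per cell cannot be told apart.

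Averaged over all 80 members and set to a mean of 0, the level was highest in LW HS and lowest in the F1 groups. It was 0.02 ± 0.07 (SD, n = 6) in LW TN and 0.09 ± 0.06 (SD, n = 6) in LW HS. In CR it was -0.03 ± 0.08 (SD, n = 6) at TN and 0.01 ± 0.06 (SD, n = 6) at HS. In F1 it was -0.04 ± 0.02 (SD, n = 6) at TN and -0.05 ± 0.08 (SD, n = 6) at HS. All 6 groups overlapped except that the highest F1 TN animal, at -0.03, lay below the lowest LW HS animal, at -0.01. The F1 TN animals were the closest together, between -0.07 and -0.03.

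**Figure D1:**
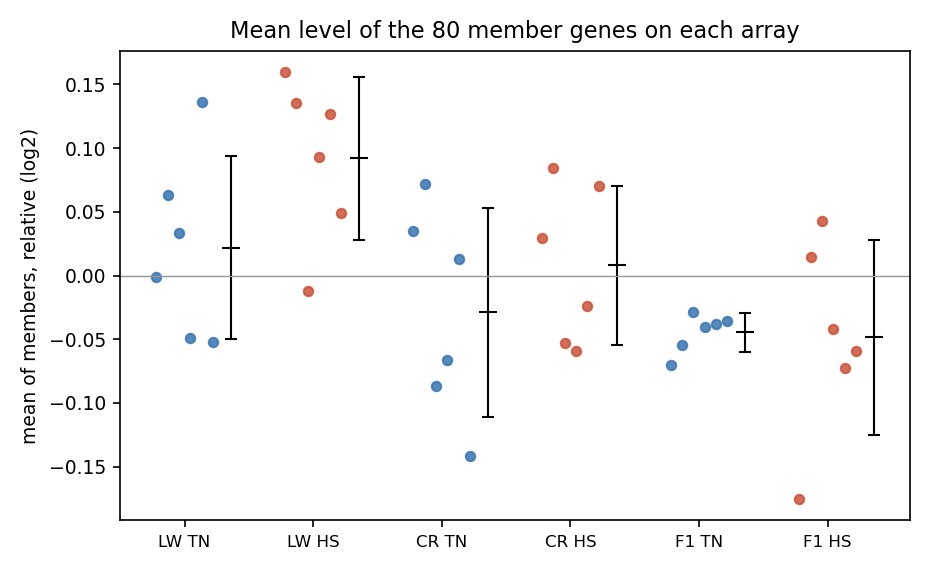
Mean over the 80 member genes on each of the 36 arrays, each gene first set to a mean of 0, in log2 units. Points are animals (blue TN, red HS) and bars are the mean ± SD of 6; LW HS lies highest at 0.09 and both F1 groups lie below 0.

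Members moved together from animal to animal. Within groups, the deviations of 2 member genes over the 36 arrays had a median correlation of 0.27 over 3160 pairs, and 81.3% of pairs were above 0. For 2 probes of the same gene the median was 0.65 over 903 pairs. These pairs share arrays and overlapping probes, and the values are a description.

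Heat was compared first, over all breeds, to ask whether ribosomal protein messages changed after days at high temperature. No member passed the test in either direction, where 0.833% of all features passed. The median difference HS minus TN was 0.04 over members and 0.00 over all features, and 62 of 80 members were above 0. At an unadjusted p under 0.05 there were 7 of 80 members, all higher in HS, where 13% of all features reached it. The large subunit members had a median of 0.05 and the small subunit members of 0.04.

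The smallest p was that of RPS20, a small subunit protein on the ribosome's head, read by 7 probes. Its log2 value ran from 16.63 over a median of 16.75 to 16.92 in the 18 TN animals and from 16.66 over 16.90 to 16.97 in the 18 HS animals. The groups overlapped, but within CR the highest TN animal was at 16.77 and the lowest HS animal at 16.83. The difference was 0.12 ± 0.03 (SE) with an adjusted p of 0.0558 in limma, and all 7 probes were above 0. Its adjusted p ranged from 0.0288 to 0.253 over 52 other settings, and it passed with normexp background correction, with probes above background on all arrays, with slide as a block and with a trended variance.

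RPL27A, a large subunit protein, was next, with values from 12.03 over 12.37 to 12.65 at TN and from 12.17 over 12.56 to 12.75 at HS. Its difference was 0.17 ± 0.05 (SE) with an adjusted p of 0.0969 in limma. RPL29, RPL4 and RPL7A completed the 5 smallest p, with differences of 0.09, 0.11 and 0.15 and adjusted p of 0.123, 0.177 and 0.227. All 5 stood above 0 and none passed. Proteins with roles outside the ribosome did not pass either. RPL5 and RPL11, which bind MDM2 when ribosome assembly fails, had differences of 0.07 and 0.06, and RPS6, the target of S6 kinase, had 0.02.

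Within each breed no member passed. LW animals had a median over members of 0.07, CR animals of 0.04 and F1 animals of 0.00. Of all features 0% passed within LW, 0.0481% within CR and 0.00902% within F1. At an unadjusted p under 0.05 there were 6 members in LW against 5.07% of all features, 6 in CR against 7.34% and 2 in F1 against 9.3%. In LW the widest shifts were RPLP0 at 0.33 and RPS9 at 0.31, each with an adjusted p of 0.95 in limma. In CR they were RPL4 at 0.23, with an adjusted p of 0.232, and RPL27A at 0.23, with 0.514. The test of the difference between breeds in the heat response passed for no member and for 0% of all features. RPS9 had the smallest p there, with an adjusted p of 0.999, and it was the 1 member under an unadjusted 0.05, which 3.77% of all features reached.

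**Figure D2:**
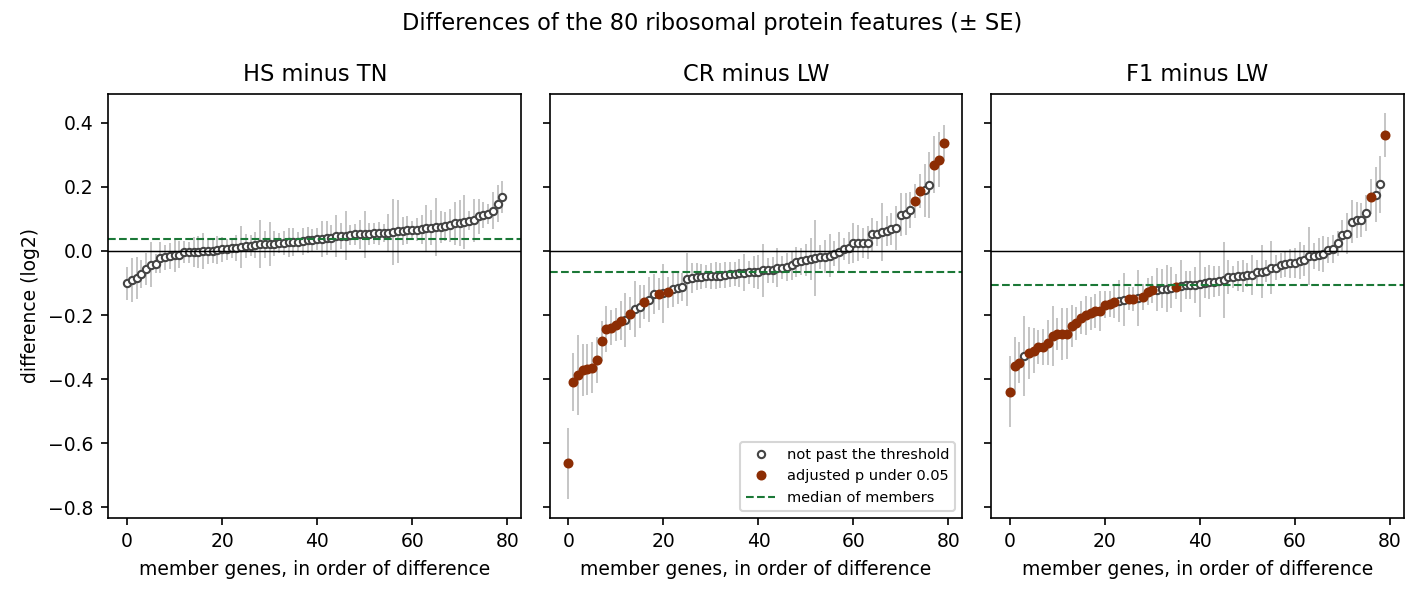
Log2 difference ± SE of each of the 80 members in 3 comparisons, in order of the difference. Filled points passed the test: 0 for HS minus TN, 21 for CR minus LW and 30 for F1 minus LW; the dashed line is the members' median, 0.04, -0.07 and -0.10.

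Breeds differed more. Between CR and LW, 21 members passed, 16 lower and 5 higher in CR, against 25.2% of all features (10.8% lower and 14.4% higher). The calls among members lay mostly on the lower side, and over all features more lay on the higher side. The median was -0.07 over members and 0.01 over all features, and 58 of 80 members were below 0. Of the large subunit members 8 were lower and 2 higher, and of the small subunit members 5 were lower and 2 higher. The split depended on scaling: with each array set to its 75th percentile it was 25 lower and 3 higher, and in the authors' own log2 table it was 31 lower and 1 higher. Without slide 3 there were 10 calls, and the median difference over members was below 0 on 4 of the 5 slides.

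RPLP0, which anchors the acidic stalk proteins that recruit elongation factors, had the lowest difference. Its level ran from 11.50 over a median of 12.10 to 12.54 in LW and from 10.98 over 11.45 to 12.02 in CR. The CR median lay below the lowest LW animal, although the ranges overlapped. Its level in CR was 36.8% lower, a difference of -0.66 ± 0.11 (SE) with an adjusted p of 4.66e-05 in limma. RPL3, a core protein near the catalytic centre, ran from 12.68 over 13.11 to 13.30 in LW and from 12.40 over 12.65 to 13.14 in CR. Here too the CR median lay just below the lowest LW animal. It was 22.8% lower, with an adjusted p of 0.000947 in limma. RPLP1 and RPLP2, the stalk proteins that bind RPLP0, differed by -0.08 and 0.06 and did not pass.

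RPL41, the smallest ribosomal protein, RPL9 and the paralogue RPL22L1 were also lower in CR, by 24.6%, 22.3% and 17.6%. RPL41 was dim, with animals between 6.81 and 7.86 in LW and CR, and so was RPL22L1. The 1 RPL22L1 probe shares 15 bases with an RPL5 probe on opposite strands. Its sequence is the reverse complement of the start of RPL22L1 coding sequence, so that it lies opposite to that message. What it binds was not tested, and its value may not be the level of the paralogue's message. RPL10L, whose probe the array's annotation ties to the same transcript as RPL10, was 22.6% lower, and the RPL10 probe that shares 49 bases with it differed by -0.41. The other 4 bright RPL10 probes differed by -0.13 to -0.08, and RPL10 as a whole, at -0.08, did not pass. RPS2 and RPS2P32, read from opposite strands, were lower by 14% and 21.0%. The probe named RPS2 is the one that lies opposite to the RPS2 message. RPSA, a small subunit protein also known as the laminin receptor, was 15.3% lower, from 14.08 over 14.43 to 14.56 in LW and from 14.06 over 14.11 to 14.34 in CR. The other lower members were RPS27, RPL15, RPL7, RPS12, RPL10A and RPS21, between 15.5% and 8.58% lower, and RPL38. The RPL38 difference came from 1 of its 2 probes and is described below.

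The 5 higher in CR were RPL22, RPS25, RPS13, RPL17 and RPS19BP1. RPL22, a large subunit protein that also binds viral and cellular RNA, ran from 14.09 over 14.17 to 14.48 in LW and from 14.33 over 14.54 to 14.84 in CR. It was 26.2% higher in CR, 0.34 ± 0.06 (SE) with an adjusted p of 5.1e-05 in limma. RPS25, which some viral messages need to start translation, was 20.5% higher. Its values ran from 14.74 over 14.97 to 15.29 in LW and from 14.87 over 15.20 to 15.64 in CR, so that the ranges overlapped widely. RPS25, RPS13 and RPL17 did not pass under the 75th percentile scaling or in the authors' table.

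In the F1 animals the lower members were many. Between F1 and LW, 30 of 80 members passed, 28 lower and 2 higher, against 16.5% of all features (7.17% lower and 9.35% higher). The median was -0.10 over members and 0.01 over all features, and 67 of 80 members were below 0. Of the large subunit members 14 were lower and 1 higher, and of the small subunit members 11 were lower and none higher. Within slides the median difference over members was below 0 on all 5, from -0.21 to -0.04, but without slide 3 the count of calls was 6. This comparison and the last share their LW animals.

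RPS27A was the member with the smallest p. It ran from 16.25 over 16.38 to 16.50 in LW, from 16.13 over 16.32 to 16.51 in CR and from 15.80 over 16.06 to 16.33 in F1. LW and CR covered nearly the same range, and the F1 median lay below the lowest animal of both. The difference F1 minus LW was -0.30 ± 0.05 (SE), or 18.8% lower, with an adjusted p of 0.000546 in limma. RPSA was 18.8% lower too, from 14.08 over 14.43 to 14.56 in LW and from 13.84 over 14.06 to 14.34 in F1. RPL10A, read by 11 probes, ran from 14.95 over 15.18 to 15.32 in LW and from 14.83 over 14.89 to 15.08 in F1. It was 16.5% lower, and all 11 of its probes passed.

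RPLP0, RPL41, RPL22L1, RPL3 and RPS2P32 were lower in F1 by 26.2%, 22.1%, 21.5%, 19.9% and 19.4%. RPL7A and RPS9 were lower by 18.0% and 16.8%, and RPS9 lost its place under 24 of the 52 settings tried on it. RPL5, which carries the 5S RNA into the large subunit, was 15% lower with an adjusted p of 0.0145 in limma. The stalk protein RPLP1 was 9.49% lower with an adjusted p of 0.0168. Among the other lower members, between 16.5% and 7.44% lower, were RPL7, RPL9, RPL10L, RPL15, RPL27, RPL27A, RPL29, RPS2, RPS4, RPS12, RPS16, RPS23, RPS26 and RPS28. As given above, the RPL22L1 and RPS2 probes lie opposite to the messages they are named for. RPL4, RPL10, RPL11, RPL13A, RPL32, RPLP2, RPS3, RPS6, RPS27, RPL3L, RPL26L1 and RPL7L1 did not pass. RPL22, called higher in CR, was 0.12 higher in F1 than in LW with an adjusted p of 0.146 in limma.

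The 2 members higher in F1 were RPL17, by 12.4%, and RPL13AP3. RPL17 did not pass in 11 of 52 other settings, among them the 75th percentile scaling and the authors' table. RPL13AP3 ran from 9.0 over 9.21 to 9.37 in LW, from 9.07 over 9.30 to 9.38 in CR and from 9.29 over 9.52 to 10.02 in F1. It was 28.6% higher than in LW with an adjusted p of 0.000902 in limma. The F1 median lay above the highest animal of LW and of CR. RPL13A, whose pseudogene it is named for, differed by -0.02. The 1 RPL13AP3 probe, as printed, is the reverse complement of RPL13A coding sequence and lies opposite to that message. What it binds was not tested, and its value may not be the level of a message of RPL13A or of a pseudogene.

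**Figure D3:**
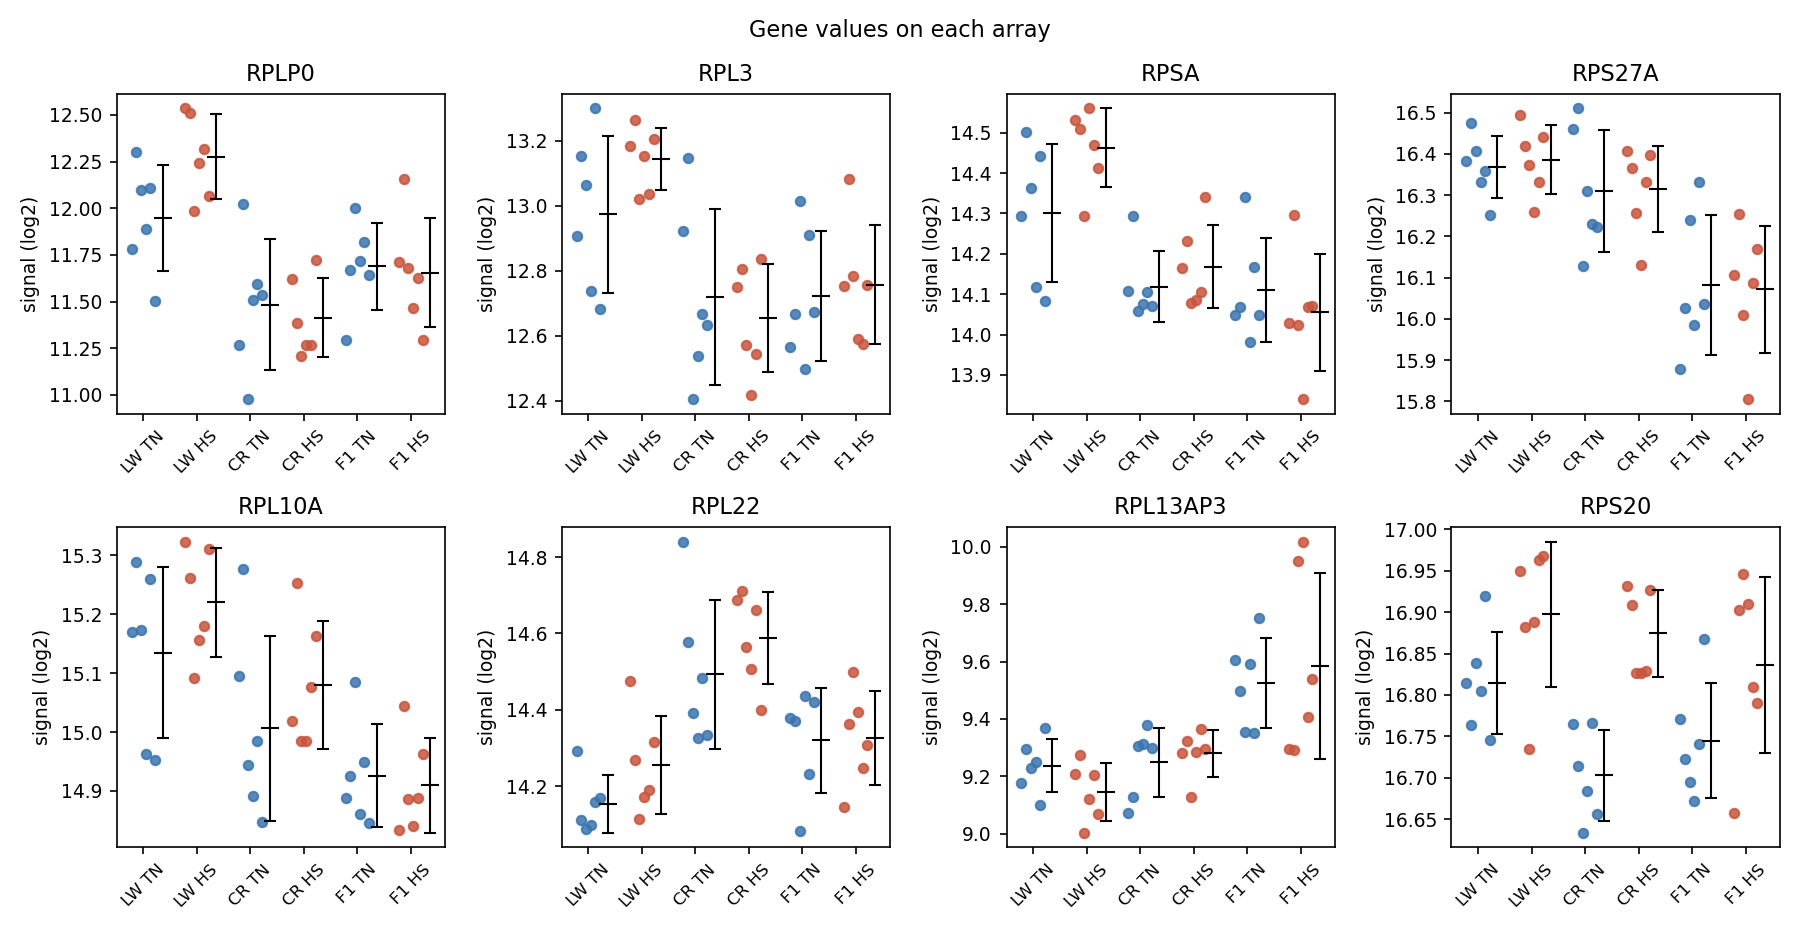
Log2 signal of 8 member genes on each of the 36 arrays, by breed and temperature. Points are animals (blue TN, red HS) and bars the mean ± SD of 6; RPLP0, RPL3 and RPSA lie highest in LW, RPS27A and RPL10A lowest in F1, RPL22 highest in CR and RPL13AP3 highest in F1.

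F1 was also set against CR and against the mean of LW and CR. Against CR, 3 members passed, 1 higher and 2 lower, against 1.39% of all features (0.646% higher and 0.742% lower). RPL13AP3 was higher at 0.29, and RPS27A and RPL22 were lower, at -0.24 and -0.22, with adjusted p of 0.021, 0.0165 and 0.038 in limma. RPL22 did not pass in 20 of 52 other settings, and its brightest probe alone gave -0.09 with an adjusted p of 0.427. Against the mean of LW and CR 3 members passed as well, against 0.667% of all features (0.277% higher and 0.391% lower). They were RPL13AP3 at 0.33, RPS27A at -0.27 and RPL10A at -0.19, with adjusted p of 0.00459, 0.00305 and 0.025. Without the 5 animals that lay apart 18 members passed, 2 higher and 16 lower, where the share over all features rose to 15.2%. Without slide 2 or slide 3 no member passed. With all animals 67 of 80 members were below 0, with a median of -0.07, where all features had 0.00. These comparisons share the F1 animals with each other, and the last shares LW and CR with the rest.

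The 16 members with 6 or more probes show how far a gene's probes read the same thing. For F1 minus LW, all probes were lower in 10 of them, all higher in 1 and of both signs in 5. RPL5 had all 19 probes lower, between -0.48 and -0.17, with 16 past the test. RPL7 had all 17 lower, between -0.30 and -0.13, with 15 past the test. RPS4 had all 15 lower, between -0.45 and -0.15, with 14 past the test. RPS12 had all 7 past the test. RPS24 was the 1 with all probes higher, and none of its 7 passed. Counted as probes, 112 of 276 were lower and 5 higher, against 18.4% of all probes. Between CR and LW it was 66 lower and 10 higher, against 26.5% of all probes.

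For CR minus LW, all probes were lower in 9 of the 16, all higher in 1, and of both signs in 6. RPL10 had probes called in both directions in both breed comparisons, 2 lower and 1 higher. The higher one, O9950, was dim, with a mean of 7.76. RPL32, often used as a reference gene, had 7 probes between -0.19 and 0.12, 1 called in each direction. In RPL11 a dim probe was higher, at 0.25, and 2 bright probes were lower, at -0.18 and -0.16. Among members with a called probe or gene and probes of both signs were also RPL12, RPL18, RPL23, RPS3, RPS10, RPS16 and RPS23.

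RPL22 and RPSA show the same at the level of single probes. The RPL22 probe A_72_P423485 ran from 13.27 over 13.46 to 13.84 in LW and from 13.73 over 14.06 to 14.72 in CR. Probe O14894, which shares 40 of its 60 bases, ran from 14.80 over 14.91 to 15.11 in LW and from 14.77 over 15.06 to 15.23 in CR. On the first the ranges barely overlapped and on the other they overlapped widely, with differences of 0.58 and 0.09. With the brightest probe alone the RPL22 difference was 0.09 with an adjusted p of 0.125 in limma. For RPSA the near-identical pair differed by -0.44 and -0.44, and the other 4 probes by -0.26 to -0.06, so that the brightest probe alone gave -0.06 with an adjusted p of 0.539.

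RPS6 was uneven among CR animals. Its probe O8731 ran from 14.04 over 15.52 to 15.87 in CR, against 15.41 over 15.75 to 15.87 in LW, while its probe A_72_P131691 ran from 14.98 to 15.27 in CR and from 14.94 to 15.27 in LW. The first spread further among CR animals than among LW animals, and the other did not. RPS6 as a gene differed by -0.22 with an adjusted p of 0.0528 in limma, and it passed under 7 of the alternatives.

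RPL38, a large subunit protein needed for the translation of a set of homeobox messages, fell into 2 separate ranges on probe A_72_P016041. No animal lay between 12.86 and 14.12. The 8 animals above the gap were 3 of 6 in LW TN, 3 of 6 in LW HS, 1 of 6 in F1 TN and 1 of 6 in F1 HS, and no CR animal was among them. The gene's other probe, O12413, ran from 15.45 to 15.80 in those 8 and from 15.59 to 15.93 in the other 28, so that it did not follow the split. Averaged over both probes, RPL38 differed by -0.39 between CR and LW, with an adjusted p of 0.02 in limma. Without the first probe it differed by 0.03 and did not pass.

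RPL6, whose 15 probes cover several stretches of the message, had a group of probes on which 4 animals stood apart. They were 2 LW HS and 2 F1 HS animals. On probe A_72_P756548 they lay at 9.37, 9.97, 10.21 and 10.33, and the other 32 animals lay between 11.75 and 13.19. On probe A_72_P729538, which overlaps it, they lay between 11.03 and 11.31, and the other 32 between 11.88 and 12.82. The same 4 animals were the lowest on 7 of the 15 probes, all of which start within 74 bases of each other. On probe A_72_P740378, which starts 90 bases into the stretch, the 4 lay at 14.59 to 14.78 within the range of the others, 14.34 to 14.84.

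The RPL6 differences moved with the same stretch. The 9 probes in the first 74 bases gave HS minus TN differences of -0.60 to -0.08, and the other 6 gave 0.03 to 0.12. For CR minus LW the 9 gave 0.18 to 0.68 and the other 6 gave -0.06 to 0.17. The part of the 4 animals in these differences was not tested apart from the 9 probes. On RPL5, whose largest stretch holds 12 overlapping probes, the differences stayed on 1 side throughout, as the plot of differences along both stretches shows.

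**Figure D4:**
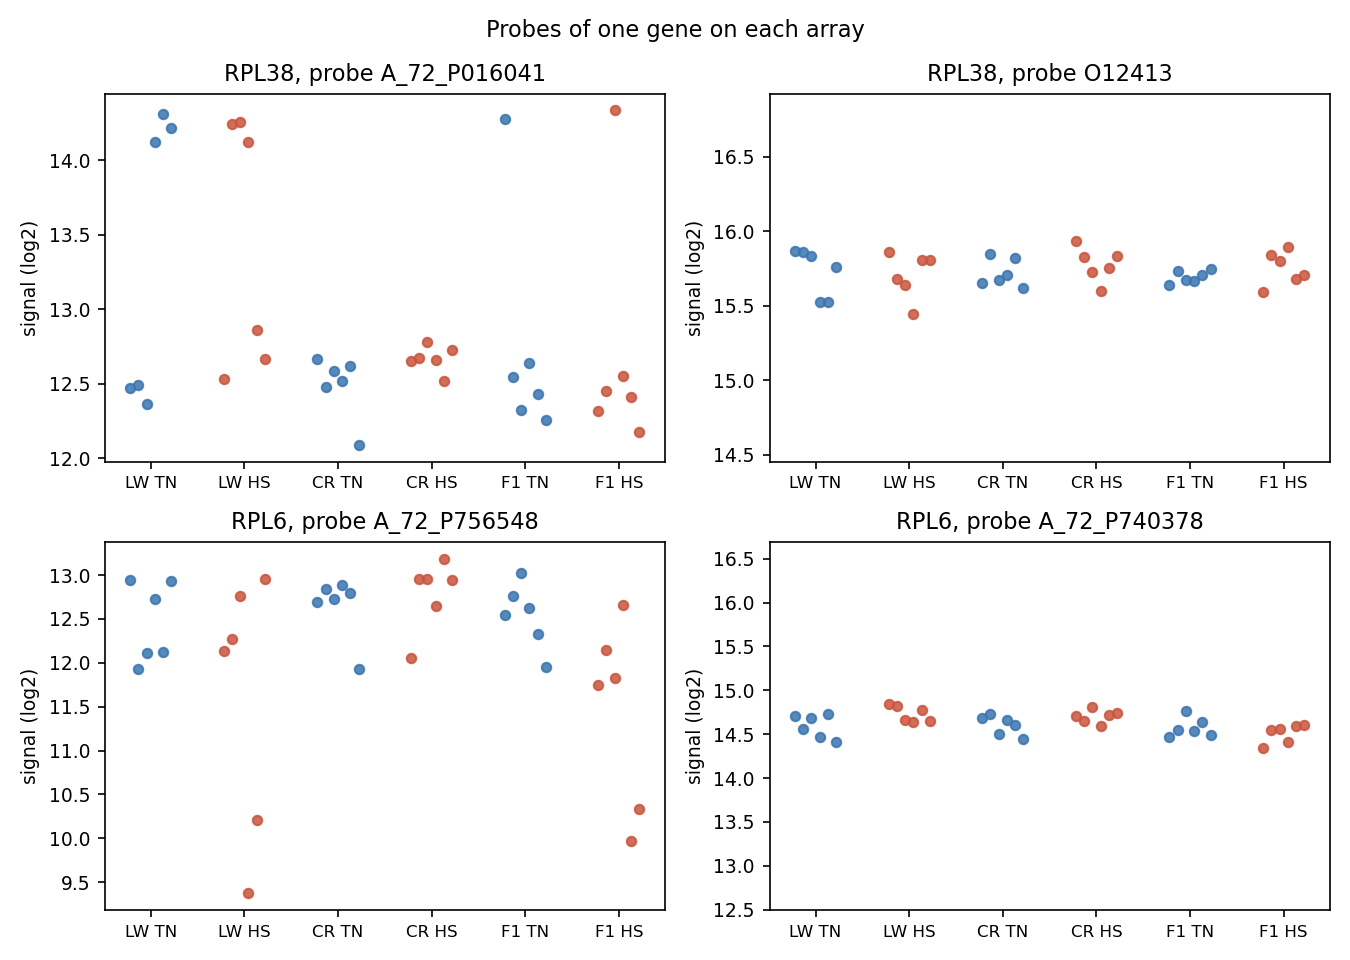
Log2 signal of 2 probes of RPL38 and 2 probes of RPL6 on each of the 36 arrays, with axes of equal length in each row. Points are animals (blue TN, red HS); 8 animals lie above 14.12 on the first RPL38 probe, 4 HS animals lie at 10.33 or lower on the first RPL6 probe, and neither split is seen on the gene's other probe.

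**Figure D5:**
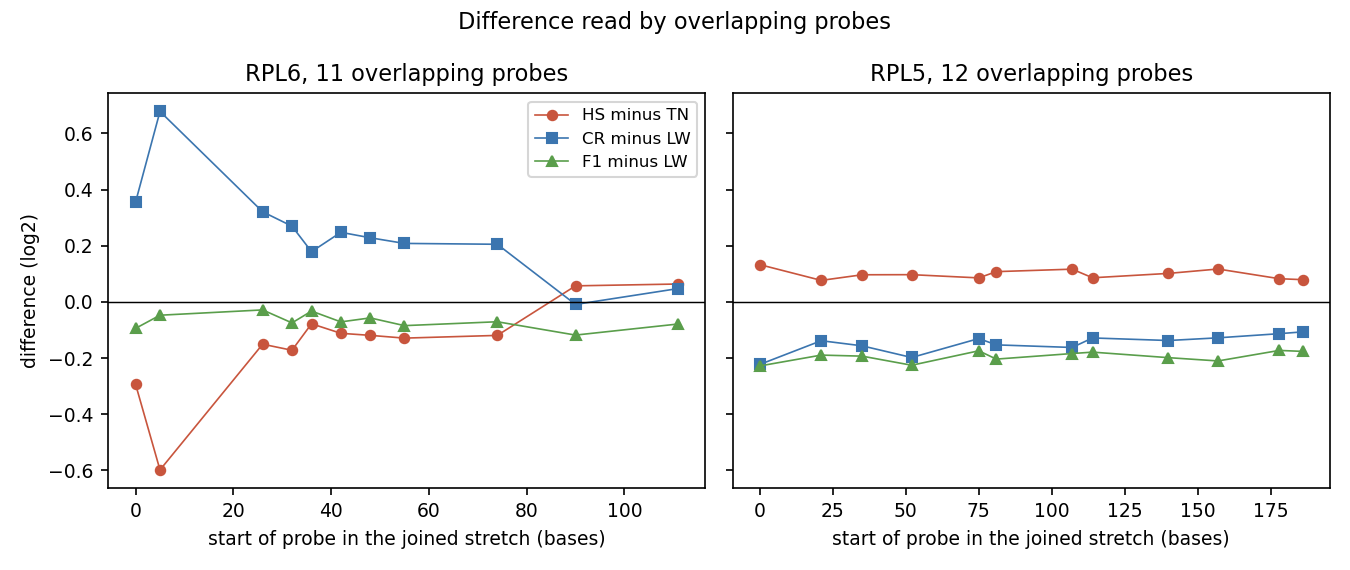
Log2 difference read by each overlapping probe of RPL6 (11 probes) and RPL5 (12 probes) against the start of the probe in the joined stretch, in bases. Red circles are HS minus TN, blue squares CR minus LW and green triangles F1 minus LW; on RPL6 the red series is below 0 up to start 74 and above 0 from start 90, where the blue series drops to 0.05 or less, and on RPL5 no series crosses 0.

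The neighbours of the ribosomal proteins in the translation pathway were read from lists, whose counts stand against the 25.2% of all features called for CR minus LW and the 16.5% for F1 minus LW. Of 20 tested elongation factors and other TOP messages, none passed for heat, with a median of 0.07, HNRNPA1 being first at 0.23 with an adjusted p of 0.0523 in limma. For F1 minus LW 1 was higher and 6 lower, with a median of -0.10. For CR minus LW 2 were higher and 4 lower. EEF2, the translocation factor, was higher at 0.49.

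Ribosome assembly factors were called mostly higher in CR. Of 35 tested biogenesis genes 11 were higher and 3 lower, with a median of 0.07, against 14.4% higher and 10.8% lower over all features. NMD3, the export adaptor of the large subunit, was higher at 0.48, RRP9 at 0.30, and nucleolin (NCL) lower at -1.20. None of the 35 passed for heat. For F1 minus LW 2 were higher and 4 lower. Among 21 genes that regulate ribosomal protein messages, 5 were higher and 2 lower in CR than in LW, and none passed for heat. LARP1 and MTOR, which control TOP messages, were higher at 0.29 and 0.19, and DEPTOR, an inhibitor of MTOR, was lower at -0.26.

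Of 23 initiation factors 4 were higher and 6 lower in CR than in LW, against 14.4% and 10.8% of all features, and 2 were higher and 4 lower in F1 than in LW, against 9.35% and 7.17%. EIF5, which triggers GTP hydrolysis at the start codon, was the 1 gene of these lists that passed for heat, higher in HS at 0.26 with an adjusted p of 0.0297 in limma. The 43 mitochondrial ribosomal proteins, which serve the mitochondria's own translation, had a median of 0.00 for heat with none past the test. They had 4 higher and 4 lower for CR minus LW, and 7 lower and none higher for F1 minus LW. The share called in either direction was thus under that of all features for CR minus LW and close to it for F1 minus LW. By direction, the F1 minus LW calls all lay on the lower side, where 9.35% of all features were higher and 7.17% lower. Their median was -0.06, so that a shift to the lower side was not particular to the cytosolic members.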

How the data were processed

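RNA from 36 pig livers had been labelled with Cy3 and hybridised to 1-colour Agilent arrays. The authors deposited scanner tables of spot intensity (Agilent Feature Extraction 10.10.1.1) and a log2 table of the same arrays, which the study's methods describe as quantile-normalized after quality control. How its probes were centred was not stated. Its columns ranked probes differently from the scanner signals (correlation -0.18 to 0.26 over probes), but after centring each probe all 36 columns correlated best with their own array, so that it gives differences and not levels. From the intensity values, the log2 median signal was quantile-normalized, 107 flagged spots were left out, and the 44796 probes well above background on at least 6 arrays were averaged by gene name into 33267 features. limma 3.58.1 in R 4.3.3 fitted breed and temperature. Effects of heat within breeds and the interaction came from 6 group means. p-values were adjusted by Benjamini-Hochberg over all features and the fit was checked on simulated data. The study's pen, slaughter day and parent effects are not in the labels. With 6 animals a group, their number limits the precision. Standard errors and p-values cover the spread between animals.

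The members, gene lists and tests were chosen with earlier results of these data known. The genes named were fixed by role, by the 10 widest called differences in each direction or, with no call, the 5 smallest p, and by probes that differed in sign; the 3 smallest p were named in the lists. Single probes were singled out after their values were seen. Other settings changed the signal, background correction, filter, variance model, probe choice, slide and animals. 3 were added after seeing the data. A few single-gene results are not reported here.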

Additional observations from a re-analysis of the deposited data

Results flagged for a closer look

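Of 186 groups of 6 animals examined, over the genes and probes named, 19 had an animal whose gap to its nearest neighbour was over Dixon's critical share of the group's range. That is 10.22%, and chance flags about 1 group in 20. Many are 1 gene and its own probe, or the same animal.

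RPL38 gave 6 of them. Its probe A_72_P016041 had 1 high animal in F1 TN at 14.2761 and 1 in F1 HS at 14.3357, whose neighbours lay at 12.6369 and 12.5536, and 1 low animal in CR TN at 12.0896. The gene mean followed at 14.9578, 15.0683 and 13.8537. The low CR TN animal was also the lowest of its group for RPL6, at 14.2018, and for the RPL6 probe A_72_P756548, at 11.9259. RPL6 further had a high LW TN animal at 14.6649.

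A CR HS animal was low for RPS6, at 14.5866 against 15.2153 for the next, and for its probe O8731, at 14.0416 against 15.3153. The RPL22 probe A_72_P423485 had a high CR TN animal at 14.7177 and the RPL22 probe O14894 a low F1 TN animal at 14.7013. Single animals stood apart for RPS20 in LW HS (lowest, 16.7345), RPL41 in F1 TN (lowest, 6.683), RPSA in CR TN (highest, 14.2932), RPL5 in F1 HS (highest, 15.0454), RPL13AP3 in CR HS (lowest, 9.1259) and RPS25 in LW HS (highest, 15.2871).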

How the results depend on the processing

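For HS minus TN, where no member passed, 1 member (RPS20) passed with normexp background correction, with probes above background on all arrays, with slide as a block and with a trended and robust variance; leaving out 1 animal gave 0 to 1, with RPS20 passing without LW TN replicate 5, LW HS replicate 3, F1 TN replicate 6 or F1 HS replicate 1. For CR minus LW (21 members) the authors' log2 table gave 32, 17 of them shared, and counting every probe gave 76. Leaving out 1 animal or 1 slide gave 10 to 25. For F1 minus LW (30 members) counting every probe gave 117, and leaving out 1 animal or slide gave 6 to 31. Both lowest counts were those without slide 3, and without slide 4 F1 minus LW gave 17. Fewer animals entered these fits, and the cause was not otherwise tested. For F1 minus CR (3 members) the 75th percentile scaling and the authors' table gave 1, and leave-outs 0 to 4 (0 without slide 2 or 3, 1 without slide 4 or 5). For F1 minus the mean of LW and CR (3 members) the count was 10 with normexp, 5 with probes above background on all arrays, 8 with slide as a block, 11 with array weights, 5 with the brightest probe, 15 counting every probe and 18 without the 5 animals that lay apart. Leave-outs gave 0 to 10, with 10 without F1 HS replicate 2, 8 without F1 TN replicate 3, 7 without LW TN replicate 6, 5 without F1 TN replicate 5 and 0 without slide 2 or 3. RPL38 changed sign between CR and LW, to 0.032, with the brightest probe and without the 10 probes of RPL38 and RPL6 described. The median over members moved by less than 1 SD between animals, but for CR minus LW it went from -0.07 to -0.10 with the 75th percentile scaling and -0.12 in the authors' table, for F1 minus LW from -0.10 to -0.12 and -0.15, and for heat within LW from 0.07 to 0.11 in both. For heat it went from 0.04 to 0.02 and 0.03. Names matched in either case (96) gave 25 and 33 calls for CR minus LW and F1 minus LW, and ribosomal protein names alone (68) gave 17 and 26. RPLP0, RPL3, RPL9, RPL10L, RPL15, RPL22L1, RPL41 and RPS2P32 passed for CR minus LW in all 53 settings, and RPL10A, RPL13AP3, RPL22L1, RPS27A and RPSA for F1 minus LW. Of these, the RPL22L1 and RPL13AP3 probes lie opposite to the message, as described above. No paired analysis was possible because the labels give no replicate numbers. Most member probes were bright, but RPL41 and RPL22L1 were dim and 3 names were left out by the background filter.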
